A study of Rattus norvegicus with 2 samples.

Results

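The let-7 family was described in carotid arteries of rats, 10 days after balloon injury and without injury. Its members here were the guide strands rno-let-7a, rno-let-7b, rno-let-7c, rno-let-7d, rno-let-7e, rno-let-7f, rno-let-7i and rno-miR-98 (written below without the species prefix), chosen by name, which makes 8 of the 350 rat microRNAs (miRNAs) on the arrays. Total RNA from carotid artery of male Sprague-Dawley rats of 250 g was labelled with Cy3 and hybridised to 1-colour miRNA arrays, per the labels. There was 1 array for the injured artery and 1 for the uninjured artery, so no value below has a replicate error, no test between the groups was run, and each comparison is between these 2 arrays. The sources used here do not state how many rats each RNA came from. In balloon injury an inflated catheter is drawn through the vessel, which removes the endothelial lining and overstretches the vessel, and the smooth muscle of the media then proliferates into a neointima.

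let-7 was found in the worm Caenorhabditis elegans as a regulator of developmental timing, and in mammals its family is abundant in differentiated tissues. Family members share a seed, the stretch near the 5′ end that pairs with target messenger RNAs, and repress growth genes such as Hmga2, Ras family members and Lin28. LIN28 proteins in turn bind let-7 precursors and block their processing in stem cells and some tumours, so guide levels can differ from transcription of the hairpins.

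The mature sequences are shown because the members differ by so few bases that the specificity of each array probe bears on every value. They are from RefSeq (build GRCr8), where all 8 members were matched, and are written 5′ to 3′ with the seed, bases 2 to 8, in capitals.
let-7a: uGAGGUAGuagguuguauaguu
let-7b: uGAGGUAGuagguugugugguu
let-7c: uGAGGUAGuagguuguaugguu
let-7d: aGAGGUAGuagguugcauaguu
let-7e: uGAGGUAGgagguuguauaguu
let-7f: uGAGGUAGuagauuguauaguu
let-7i: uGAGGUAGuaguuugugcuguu
miR-98: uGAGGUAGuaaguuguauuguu

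All 8 were 22 bases long and carried 1 seed, GAGGUAG. Among the 693 mature rat names in the RefSeq table, 9 had this seed, and the name outside the family as defined here, let-7g, was not analysed here. The members were identical at 14 of the 22 positions. Counted from 1 at the 5′ end, and with the base of let-7a first, let-7c differed from let-7a by A19G alone, let-7e by U9G alone and let-7f by G12A alone. let-7b differed by A17G and A19G, let-7d by U1A and U16C, and miR-98 by G11A and A19U. let-7i was the most distant from let-7a, with G12U, A17G, U18C and A19U. Position 19 varied most often, with 4 members differing from let-7a there. G and C made up 31.8% of the bases in let-7f and miR-98, 36.4% in let-7a, 40.9% in let-7c, let-7d, let-7e and let-7i, and 45.5% in let-7b.

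In RefSeq the 8 guides came from 11 hairpin genes on 6 chromosomes (GRCr8). let-7a, let-7c and let-7f were each encoded by 2 of them, so their signals pool transcripts of separate loci. On chromosome 17 Mirlet7a1 (chr17:16320133-16320226), the let-7f hairpin Mirlet7f-1os (chr17:16320501-16320589) and Mirlet7d (chr17:16322260-16322357) lay in a row on the plus strand. Mirlet7c2 and Mirlet7b were 320 bases apart on chromosome 7 (chr7:118683623-118683717 and chr7:118684038-118684122). Mirlet7f2 and Mir98 were 520 bases apart on chromosome X (chrX:24460045-24460127 and chrX:24460648-24460755). Mirlet7i (chr7:60527877-60527961, minus strand) had no other member's hairpin within 100000 bases. The other 3, Mirlet7e (chr1:67350229-67350321), Mirlet7c1 (chr11:29688112-29688205) and Mirlet7a-2 (chr8:50805203-50805298), lay within 100000 bases of hairpins of the miR-99, miR-100 and miR-125 families. The miR-125b hairpins were the farthest, with Mir125b2 44366 bases from Mirlet7c1 and Mir125b1 44737 bases from Mirlet7a-2.

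The arrays gave 1 signal intensity, on a linear scale, and 1 flag per miRNA, and a flag of 1 was read as detection. The summed miRNA signal was 97479 on the injured array and 95491 on the uninjured array, with 184 and 166 miRNAs detected, of which 158 were detected on both. The smooth muscle miRNAs miR-143 and miR-145 were detected on both arrays and summed to a signal of 14466 on the injured array and 17749 on the uninjured array. Within that sum miR-145 had signals of 473 on the injured array and 735 on the uninjured array. The endothelial miR-126 and miR-126* were detected on both arrays, with sums of 615 on the injured array and 626 on the uninjured array, and the hepatocyte miR-122 on neither. Within the endothelial sum miR-126* had signals of 27.8 on the injured array and 34.5 on the uninjured array. The 3 leukocyte markers (miR-142-3p, miR-142-5p and miR-223) summed to a signal of 431 on the injured array and 131 on the uninjured array. The 2 red cell markers (miR-451 and miR-144) summed to 125 on the injured array and 677 on the uninjured array. The neuronal markers miR-124 and miR-9 were flagged as detected on the uninjured array only, where the signal of miR-9, 7.43, lay below the highest undetected signal of 8.84. In whole artery RNA fewer cells of a type and less RNA per cell cannot be told apart, and the part of these shifts in the let-7 values was not tested.

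All 8 members were detected on both arrays and stood far above the undetected miRNAs. The dimmest member, miR-98, was 23.4 times the highest undetected signal on the injured array and 15.5 times that signal on the uninjured array. The family held 19.1% of the summed miRNA signal on the injured array and 20% on the uninjured array, more than miR-143, the brightest single miRNA, with 14.4% and 17.8%. On each array 5 of the 8 members were among the 20 brightest miRNAs.

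let-7c, which has a hairpin next to miR-99a, was the brightest member, with a signal of 5080 on the injured array and 5370 on the uninjured array. let-7a, the member whose sequence is the same in worms and mammals, had signals of 3939 on the injured array and 4207 on the uninjured array. let-7b, encoded beside let-7c-2, had signals of 3552 on the injured array and 3431 on the uninjured array. These 3 gave the 3 highest signals of the family on both arrays.

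let-7f, with hairpins beside those of let-7a and miR-98, had signals of 2364 on the injured array and 2568 on the uninjured array. let-7i, from its own locus, had signals of 1953 on the injured array and 1769 on the uninjured array. let-7d, the member with a different first base, had signals of 995 on the injured array and 985 on the uninjured array. These members lay in the middle of the family, and of the 3 only let-7f was dimmer on the injured array before scaling.

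let-7e, from the miR-99b and miR-125a locus, had signals of 622 on the injured array and 629 on the uninjured array. miR-98, encoded on chromosome X beside a let-7f hairpin, had signals of 140 on the injured array and 137 on the uninjured array. The order of the 8 signals was the same on both arrays, namely let-7c, let-7a, let-7b, let-7f, let-7i, let-7d, let-7e and miR-98. Brightness also depends on the probe and its binding strength, so this is an order of signals and not of abundance. Without replicates it could not be judged which neighbours in the order differ beyond their spread. The closest neighbours were let-7a and let-7b, with a signal ratio of 1.11 on the injured array and 1.23 on the uninjured array. The widest step was between let-7e and miR-98, at 4.45 on the injured array and 4.59 on the uninjured array.

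**Figure D1:**
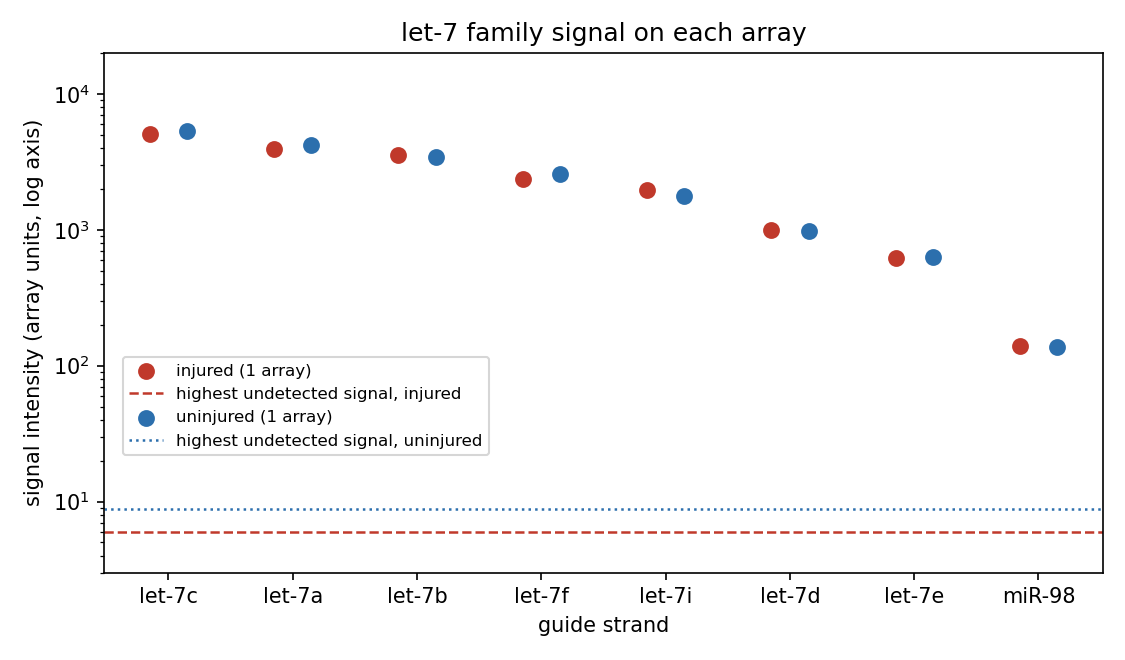
Signal intensity (array units, log axis) of each let-7 family guide strand on the injured array (red) and the uninjured array (blue), 1 array each, with lines at the highest signal of an undetected miRNA on each array. The 8 members fall from 5080 (injured) and 5370 (uninjured) for let-7c to 140 and 137 for miR-98 in the same order on both arrays, and all lie above the lines at 5.98 (injured) and 8.84 (uninjured).

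Relative to the family's own sum, let-7c held 27.2% of the family signal on the injured array and 28.1% on the uninjured array. let-7a held 21.1% on the injured array and 22.0% on the uninjured array. let-7i had the largest gain in share, with 10.5% on the injured array and 9.26% on the uninjured array, followed by let-7b with 19.1% and 18.0%. The difference for let-7i, 1.21 percentage points, was the largest of the 8. These shares do not depend on any factor that multiplies a whole array.

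For the ratios, each array was scaled by its 75th percentile over the 158 miRNAs detected on both arrays, at a signal of 377 on the injured array and 401 on the uninjured array. Log2 ratios are injured minus uninjured. The family median log2 ratio was 0.09, beside 0.14 for all 158 miRNAs and 0.11 for the 52 other miRNAs within the family's range of mean signal. let-7i had the highest log2 ratio, at 0.23, a fold of 1.17. let-7b had a log2 ratio of 0.14, miR-98 of 0.12, let-7d of 0.10 and let-7e of 0.07. let-7c (0.01), let-7a (-0.01) and let-7f (-0.03) were at or near 0.

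None of the 8 members differed by 1.5-fold or more, whereas 35.4% of the 158 miRNAs did. None differed by 2-fold or more either, beside 16.5% of the 158. The members spanned 0.26 on the log2 scale from lowest to highest, and 0.49 under quantile normalization, described below. The 52 other miRNAs of like signal spanned 4.76, and 38 of them lay within 1.5-fold. A span can only widen as miRNAs are added, and this one was set by miR-451 (-2.47) and miR-21 (2.29). The lower and upper quartiles were -0.15 and 0.52 for the 52, beside 0.004 and 0.12 for the family. The span of the 52 under quantile normalization is not given. Of those 52, 13 (25%) fell inside the interval covered by the family. miR-21, which promotes proliferation of vascular smooth muscle, lay in the same range of signal and had a log2 ratio of 2.29, with signals of 4915 on the injured array and 1065 on the uninjured array. With 1 array per group, it was not tested whether the members' ratios differ from 0 or from each other.

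**Figure D2:**
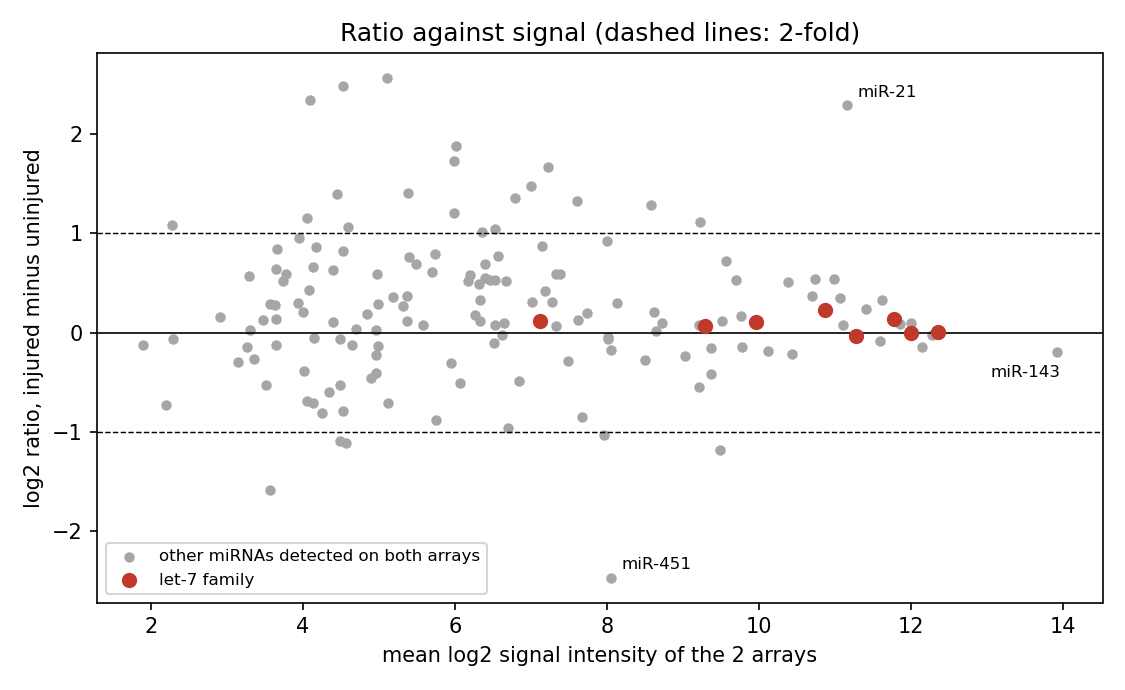
Log2 ratio (injured minus uninjured) against the mean log2 signal intensity of the 2 arrays for the 158 miRNAs detected on both, with let-7 family members in red, the others in grey and dashed lines at 2-fold. The red points lie between -0.03 and 0.23, while miRNAs of like signal reach 2.29 (miR-21) and -2.47 (miR-451).

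The sign of the family's ratio was set by the scaling. With no scaling the family median was -0.000897, with 4 members positive and 4 negative. When the medians of the arrays were aligned, all 8 members were negative, with a median of -0.36, and with the 6 detected control features aligned all 8 were negative, with a median of -0.50. In that last setting 2 members, let-7a (-0.60) and let-7f (-0.62), were at least 1.5-fold lower in the injured artery, beside 34.8% of the 158 miRNAs. There let-7c, at -0.583, lay just short of that threshold. Scaling that multiplies a whole array shifts all log2 ratios alike, so it left the family median 0.05 below the median of the 158 miRNAs. Under quantile normalization, which moves miRNAs unequally, the family median was 0.07 below that median. No direction is therefore given for the family as a whole.

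Differences among members cannot depend on whole-array scaling, under which let-7i was highest and let-7f lowest. Quantile normalization changed that order. It put let-7e highest at 0.15 and let-7i at -0.25, and widened the span of the family to 0.49, with let-7f still lowest at -0.35. The higher ratio of let-7i than of the other members thus rests on 1 array per group and on the choice of normalization.

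**Figure D3:**
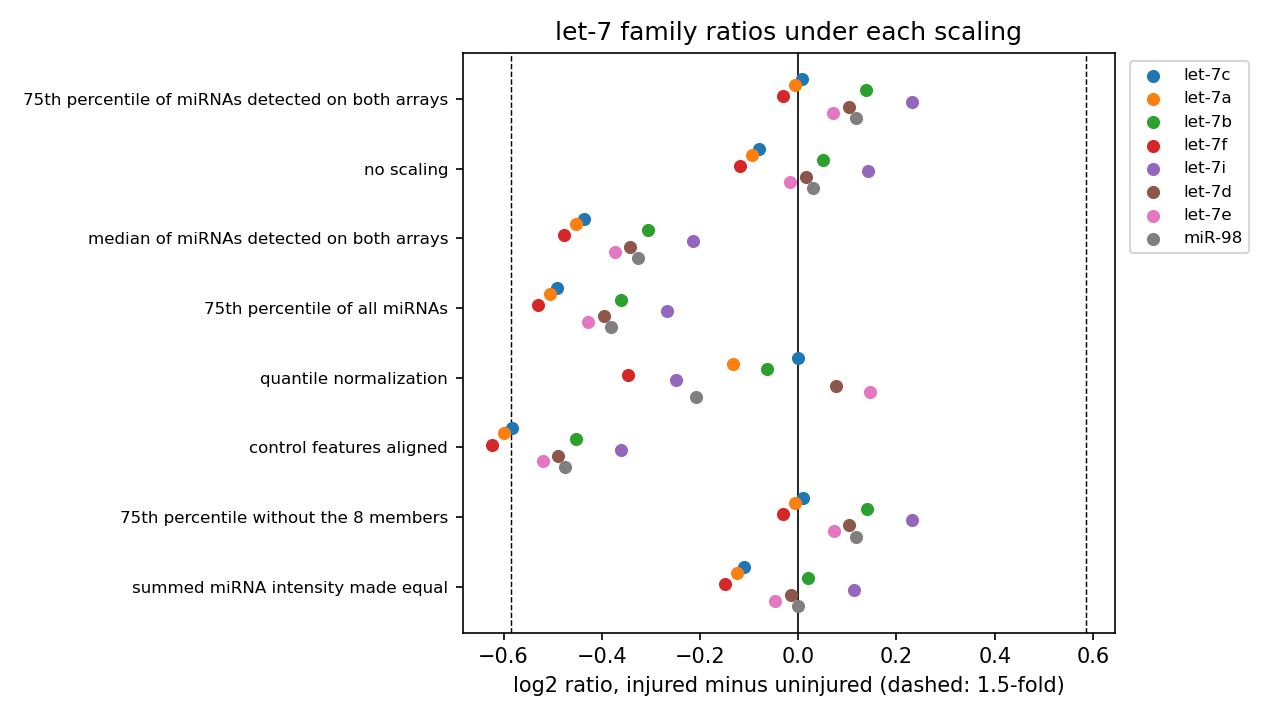
Log2 ratio (injured minus uninjured) of each let-7 family member, 1 colour per member, under the scaling used here and 7 alternatives, with dashed lines at 1.5-fold. The 8 points keep their spacing and move together from a median of 0.09 to one of -0.50 with the control features aligned, except under quantile normalization, where let-7i lies at -0.25 and let-7e at 0.15.

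Probes for sequences this similar can bind each other's targets, so small differences between members need not be separate measurements. Over the 28 pairs of members, mature sequences differed at 1 to 6 bases. The 4 pairs that differed at 1 base had a median absolute difference in log2 ratio of 0.05. The median was 0.11 for the 7 pairs that differed at 2 bases, 0.09 for the 9 that differed at 3 and 0.17 for the 6 that differed at 4. The pairs that differed at 4 bases included both the largest difference of the 28, 0.26 between let-7f and let-7i, and the smallest, 0.01 between let-7d and miR-98. The pairs that differed at 5 and 6 bases, 1 of each, were 0.16 and 0.13 apart. Both held let-7i, as did the 4-base pairs with let-7a (0.24), let-7c (0.22), let-7f (0.26) and miR-98 (0.11). These differences are under whole-array scaling, and quantile normalization moved let-7i. No trend with the number of differing bases is therefore drawn. Signals of pairs differing at 1 base were 0.35 to 2.74 log2 units apart on the uninjured array, so probes for near-identical members did not give equal signals. How far the probes bind other members was not tested.

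**Figure D4:**
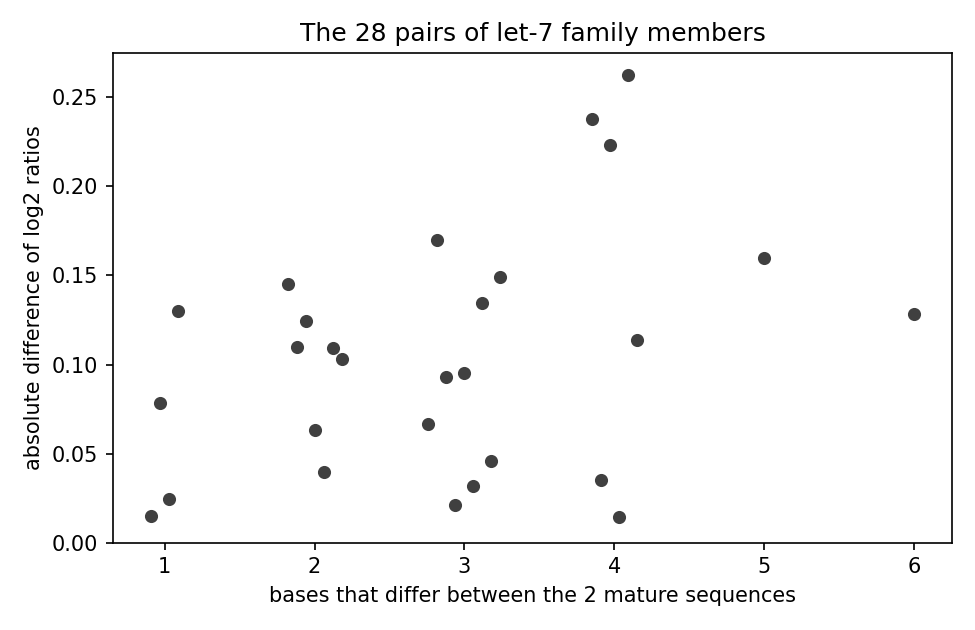
Absolute difference of log2 ratios (injured minus uninjured) between the 2 members of each of the 28 pairs, against the number of bases at which their mature sequences differ; points are spread sideways to be seen. No pair is more than 0.26 apart, and the pairs differing at 1 base lie between 0.01 and 0.13. Each member is in several pairs, so the points are not independent.

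The miRNAs encoded within 100000 bases of these let-7 hairpins are given by locus. At the chromosome 1 locus, where Mir99b lies 95 bases from Mirlet7e and Mir125a 353 bases beyond it, the ratios lay between 0.07 and 0.20. miR-99b had signals of 100.4 on the injured array and 99.7 on the uninjured array, a log2 ratio of 0.10. miR-125a-5p had signals of 222 on the injured array and 206 on the uninjured array, a log2 ratio of 0.20, beside 0.07 for let-7e.

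At the chromosome 11 locus Mir99a lies 639 bases from Mirlet7c1. miR-99a had signals of 553 on the injured array and 787 on the uninjured array, and its log2 ratio of -0.42 stood below the 0.01 of let-7c. At the chromosome 8 locus Mir100 lies 6828 bases from Mirlet7a-2. miR-100 had signals of 319 on the injured array and 410 on the uninjured array, with a log2 ratio of -0.27, beside -0.01 for let-7a. miR-125b-5p, which has a hairpin at each of these 2 loci, had signals of 4763 on the injured array and 5157 on the uninjured array and a log2 ratio of -0.03. let-7a and let-7c each have a further hairpin elsewhere, so their signals do not report on these loci alone. Under quantile normalization these gaps changed. The log2 ratio of miR-99b minus that of let-7e was then -0.48 (0.03 under whole-array scaling). That of miR-125a-5p minus let-7e was -0.15 (0.13), that of miR-99a minus let-7c was -0.50 (-0.43), and that of miR-100 minus let-7a was -0.13 (-0.27). None of the 5 neighbours differed by 1.5-fold or more under the scaling used here, beside 35.4% of the 158 miRNAs. miR-99a and miR-100 were at least 1.5-fold lower in the injured artery under 3 alternatives. Their log2 ratios were -0.86 and -0.72 after the medians were aligned, beside 25.3% of the 158 miRNAs that low. With the 75th percentile over every miRNA they were -0.92 and -0.77, beside 28.5%. After alignment of the control features they were -1.01 and -0.86, and miR-125b-5p (-0.62) was also past 1.5-fold, beside 34.8%. With 1 array per group the gap between miR-99a and let-7c was not tested.

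Passenger strands, the hairpin arms that are mostly discarded, were near or below detection. Of the 4 on the arrays, let-7b*, let-7e* and let-7i* were detected on neither array and no ratio is given for them. let-7d* was detected on both, with signals of 3.47 on the injured array and 6.11 on the uninjured array. Both signals lay below the highest undetected signal of their own array, 5.98 on the injured and 8.84 on the uninjured array, so no ratio is given to set against the 0.10 of the guide let-7d.

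The 3 other miRNAs of like signal whose ratio lay nearest to the family median were miR-23a, miR-24 and miR-126, judged over 2 arrays by the distance between log2 ratios. miR-24 had signals of 4095 on the injured array and 4084 on the uninjured array and a log2 ratio of 0.09, as did miR-23a, with 3693 and 3691. The endothelial miR-126 had signals of 587 on the injured array and 592 on the uninjured array and a log2 ratio of 0.08. The other endothelial marker, miR-126*, had a log2 ratio of -0.22. The 3 were picked for their small distances to the family median, which were under 0.01 and cannot change under whole-array scaling. Under quantile normalization the distance was 0.31 for miR-126, 0.10 for miR-24 and 0.000571 for miR-23a. The closeness of miR-126 and miR-24 thus depends on the normalization, while miR-23a was close under both kinds.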

How the data were processed

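The labels put 1 array in each group. Per the labels' protocols, RNA was extracted with Trizol and labelled with Cy3 using Agilent's miRNA reagent. The deposited array files hold a linear signal intensity and a flag per feature (350 rat miRNAs, 22 controls). The sources used here do not state the scanner software, background subtraction or prior normalization. The flag is undefined in the files and was read as detection, a score of 0 or 1 as deposited. On each array 109 miRNAs stood at exactly 1, while 24 on the injured and 27 on the uninjured array lay under 1, and what these values stand for is not stated. The authors' deposited value table holds a ratio, equal to injured over uninjured intensity for 349 of 349 shared names within 1e-05.

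Intensities were log2-transformed and scaled by the 75th percentile of the 158 miRNAs detected on both arrays (Python 3.11.15, numpy 2.4.6, pandas 2.3.3), with 8 alternatives. Thresholds of 1.5-fold and 2-fold are descriptive. The named miRNAs were the 8 members, the passenger strands, 5 neighbours, the 3 nearest in ratio, miR-21, miR-143 and cell type markers. Members and lists were chosen with earlier results of these data known. On simulated data without noise, known changes larger than 2-fold in miRNAs outside the family were recovered at the 2-fold threshold. Changes as small as the family's ratios were not simulated. Members were left unchanged there and kept equal ratios by construction, so recovery of differences among members was not tested. Quantile normalization was not simulated. The array factor was not always recovered: its error could exceed the family's median ratio, and a first limit set on that error was not met. Signals are sparse beside the 75th percentile, with a gap of 0.47 on the log2 scale above it on the uninjured array. Ratios relative to 0 are limited by this. The number of arrays limits the precision.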

Additional observations from a re-analysis of the deposited data

How the results depend on the processing

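The family median log2 ratio was 0.09, and also 0.09 with the members left out of the 75th percentile. It was -0.000897 with no scaling and also in the deposited ratio table, -0.0306 with summed intensities made equal, -0.0984 with quantile normalization, -0.357 after alignment at the medians, -0.411 after scaling by the 75th percentile over every miRNA, and -0.504 after alignment of the control features. The count of members at least 1.5-fold different was 0 under the scaling used here, beside 35.4% of the 158 miRNAs. It was 2 with the control features aligned, both lower, beside 34.8% of the 158 at least 1.5-fold lower, and let-7c was just short of the threshold there. The count at 2-fold was 0 under the scaling used here, beside 16.5% of the 158, and 0 in all 8 alternatives. The family's share of the summed signal was 19.1% on the injured and 20% on the uninjured array, 19.2% and 20.1% over miRNAs detected on that array, and 19.2% and 20.1% over miRNAs detected on both. Except under quantile normalization, and but for rounding in the deposited ratio table, these alternatives shift all log2 ratios by 1 constant, which fixes the spacing of the members by construction. The 6 control features detected on both arrays were brighter on the injured array, with a median unscaled log2 ratio of 0.50. Which scaling is nearest to the RNA levels was not tested. The alternative bound against the highest undetected signal gave no value, since both signals of let-7d* lay under it and the neighbours were detected on both arrays. No replicate could be left out. No paired analysis was possible because each group has 1 array.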
